A study of Rattus norvegicus with 3 samples.

Results

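The VEGF and angiopoietin signalling genes of the rat heart were followed in single-nucleus RNA sequencing of the heart apex. They were 10 genes chosen by name: the VEGF ligands Vegfa, Vegfb and Vegfc, the VEGF receptors Flt1, Kdr and Flt4, the angiopoietins Angpt1 and Angpt2, and the Tie receptors Tek and Tie1. All 10 were found among the 22250 genes of the count tables. VEGF ligands are secreted proteins that act on receptor tyrosine kinases of blood and lymphatic vessels and drive vessel growth and permeability. Angiopoietins act on the Tie2 receptor, which Tek encodes. Angpt1 steadies resting vessels, and Angpt2 acts against or in place of it where vessels are remodelled. In the heart, cardiomyocytes are a known source of VEGF-A and endothelial cells are the main site of the receptors.

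3 libraries were measured, 1 per genotype, from nuclei of the heart apex of rats at 12 months of age, with parts of the septum and both ventricles. The WT library was wild-type. The BMD rats, a Sprague Dawley model of Becker muscular dystrophy made with CRISPR/Cas9, lack exons 45 to 47 of Dmd, the dystrophin gene, in frame, and the DMD rats, a model of Duchenne muscular dystrophy, lack exon 52. Nuclei were sorted on DAPI before capture, and the number of animals behind each library was not given in the sources used here. With 1 library per genotype no difference between genotypes could be tested, so every interval below covers the counting error of the unique molecular identifiers (UMIs) only and not the spread between animals. The intervals of levels and ratios take UMIs as independent, so they also leave out the clumping of UMIs within single nuclei. The levels are UMIs per 1000000 UMIs of the same class and library (CPM). They count UMIs read from 1 end of a transcript, which the labels give as the 3′ end, with no correction for length, so they are compared between classes and libraries within a gene and not between genes.

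Of 24664 nuclei, those of 8 classes with at least 50 nuclei in each library were compared. These were 4687 cardiomyocyte-like, 7517 fibroblast-like, 4979 endothelial-like, 1699 mural-like, 1649 macrophage-like, 819 lymphocyte-like, 607 lymphatic-like and 531 endocardial-like nuclei. The classes were built without the 10 genes and were named from other markers. Schwann- and monocyte-like nuclei were too few, and clusters that could not be named, most of them rich in called doublets or mitochondrial RNA, held 5.74 to 10.6% of the nuclei of a library. Pericyte and smooth muscle markers did not separate, so both are in the mural-like class. Library totals were 19215994 to 21609238 UMIs, and the median nucleus held 1212.5 to 1486.5. Libraries shared 12 to 20 nucleus barcodes. In cardiomyocyte-like nuclei Dmd read 16439.7 CPM in WT against 20532 in BMD and 19432 in DMD. These counts are totals per gene without exon detail, so they do not show the deleted exons. Barcodes with at most 50 UMIs gave the profile of free RNA, and from markers of unrelated cells such RNA was estimated at 2.23 to 3.57% of UMIs in cardiomyocyte-like nuclei and 4.57 to 13.5% in the other classes.

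**Figure D1:**
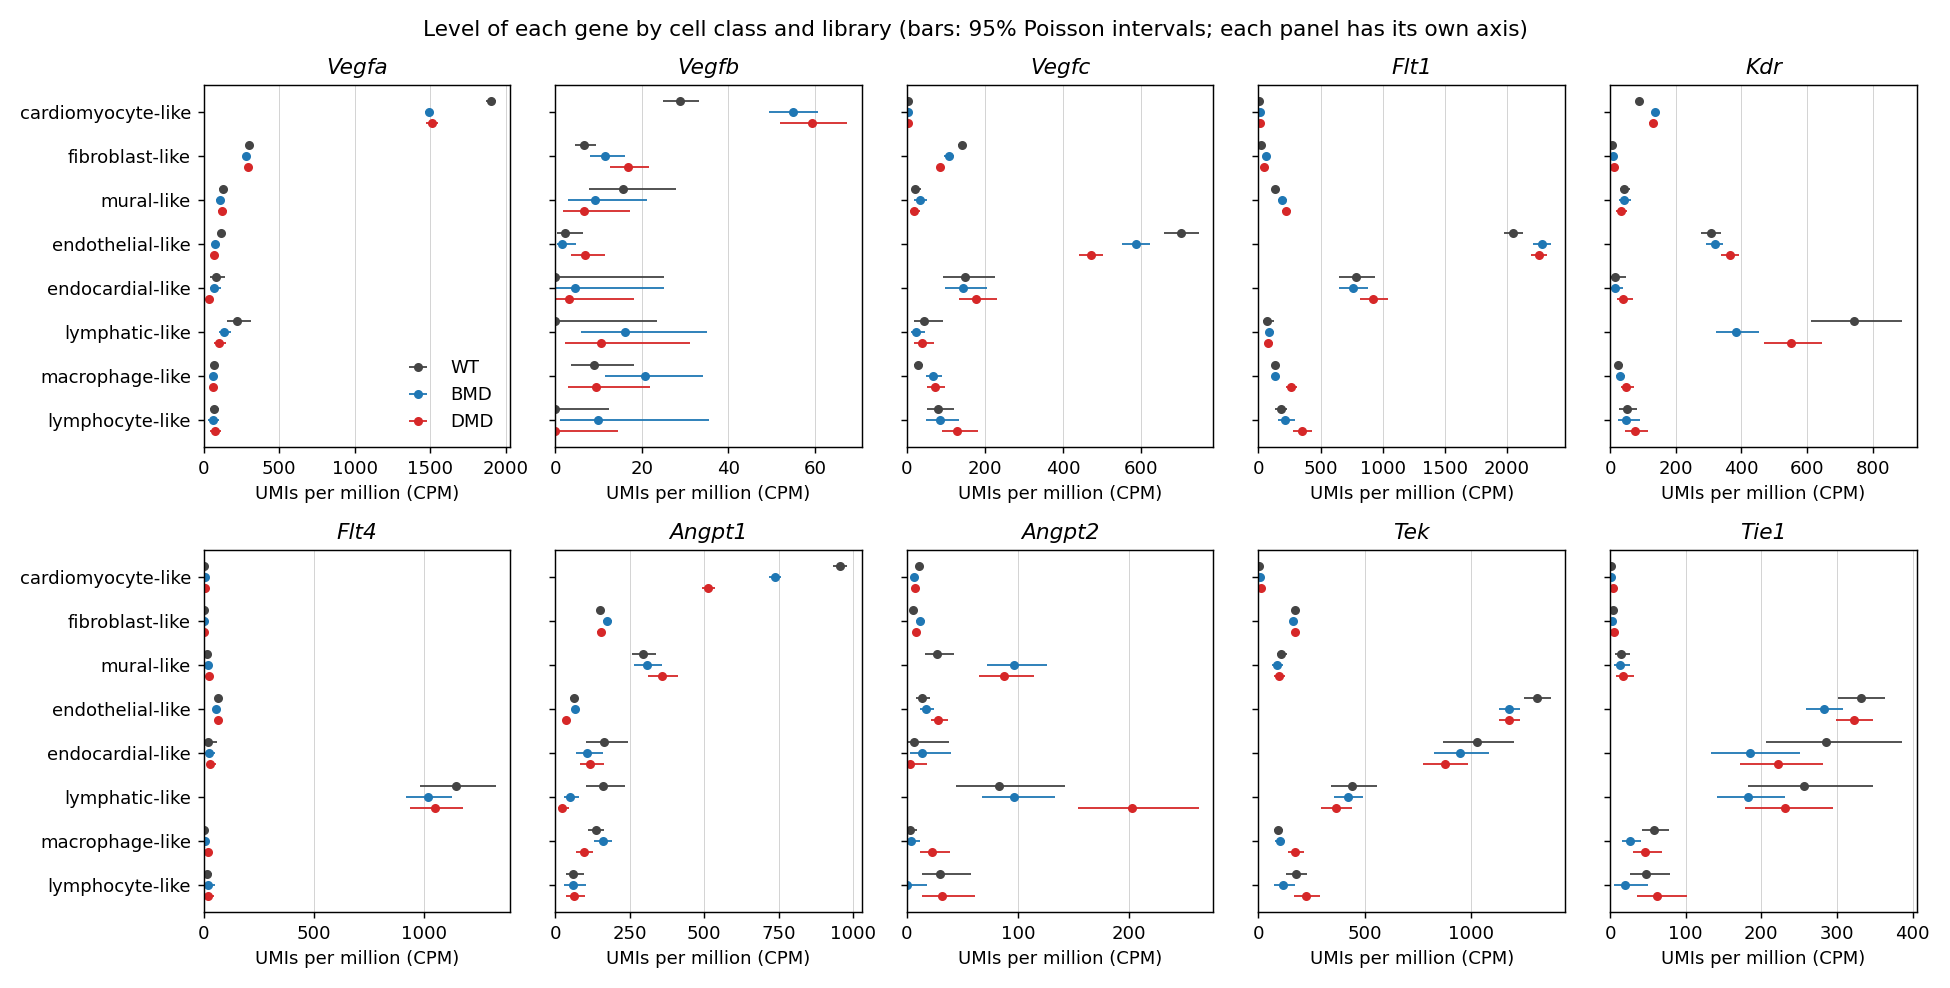
Level of each of the 10 genes (CPM, horizontal axes, 1 scale per panel) in 8 cell classes (rows) of the WT, BMD and DMD libraries (grey, blue and red points), with 95% Poisson intervals as bars. Vegfa, Vegfb and Angpt1 were highest in cardiomyocyte-like nuclei, Flt1, Tek and Vegfc in endothelial-like nuclei and Flt4 and Kdr in lymphatic-like nuclei.

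Vegfa (ENSRNOG00000019598), the VEGF ligand that acts on both Flt1 and Kdr, was highest in cardiomyocyte-like nuclei of every library. Its level there was 1900.4 CPM in WT against 1493 in BMD and 1511 in DMD. Both dystrophin-mutant libraries were thus below WT, by a log2 ratio of -0.35 (95% interval -0.39 to -0.31) for BMD and -0.33 (95% interval -0.38 to -0.29) for DMD. These ratios were taken on CPM + 5, and the interval is that of the plain ratio of UMIs. Neither reached 1.5-fold, the size set for naming a difference. BMD and DMD did not differ beyond counting error, with a log2 ratio of 0.02 (95% interval -0.03 to 0.06). The share of Vegfa UMIs in cardiomyocyte-like nuclei was 74.9% in WT against 81.6% in BMD and 69.1% in DMD. Their share of the UMIs of all genes was 37.4% in WT against 44.9% in BMD and 28.7% in DMD, so Vegfa was more concentrated in them than the average transcript. After each nucleus was thinned to 500 UMIs, the share of cardiomyocyte-like nuclei with a Vegfa UMI was 59.2% in WT against 54.9% in BMD and 51.0% in DMD. The share in lymphocyte-like nuclei, which served as background, was 3.14 to 3.94%. Without thinning the cardiomyocyte-like shares were 95.8% in WT against 96.3% in BMD and 93.8% in DMD, at median depths of 2761, 3761.5 and 3245 UMIs, against 749, 816 and 839.5 in lymphocyte-like nuclei.

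Fibroblast-like nuclei came second for Vegfa and did not differ between the genotypes beyond counting error. They read 298 CPM in WT against 282 in BMD and 295 in DMD, where free RNA was estimated to give 68.6 to 84.9 CPM. In mural-, macrophage-, lymphocyte- and endocardial-like nuclei Vegfa was at 35.9 to 127 CPM, where free RNA was estimated at 82.8 to 196 CPM. Lymphatic-like nuclei read 224 CPM in WT against 137 in BMD and 103 in DMD, with 85.9 to 99.4 CPM from free RNA. Endothelial-like nuclei read 113 CPM in WT against 72.7 in BMD and 71.1 in DMD, where free RNA alone was estimated to give 117 to 134 CPM. The log2 ratios of endothelial-like nuclei to WT, -0.61 (95% interval -0.98 to -0.29) in BMD and -0.64 (95% interval -1.01 to -0.33) in DMD, passed 1.5-fold, but all 3 levels were below the free RNA estimate and the calls were lost under 6 and 4 of 14 alternative settings. An estimate above the measured level is too high, so the part of free RNA in such levels is not known. The Vegfa level of free RNA itself was 1499.7 CPM in WT against 1568 in BMD and 1072 in DMD.

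Vegfb (ENSRNOG00000021156), a ligand of Flt1 alone, was scarce but followed Vegfa in its cell class and went the other way between genotypes. Cardiomyocyte-like nuclei held 185, 369 and 235 UMIs in WT, BMD and DMD, or 28.8 CPM in WT against 54.9 in BMD and 59.4 in DMD. Both mutant libraries were above WT, with log2 ratios of 0.83 (95% interval 0.67 to 1.19) in BMD and 0.93 (95% interval 0.76 to 1.33) in DMD. Free RNA was estimated to add 0.425 to 1.55 CPM. Thus within the same nuclei the ligands differed from WT in opposite directions, Vegfa below it and Vegfb above it. The share of Vegfb UMIs in the class was 68.0% in WT against 76.7% in BMD and 61.0% in DMD. No other class passed 100 UMIs over a pair of libraries, and fibroblast-like nuclei read 6.76 CPM in WT against 11.6 in BMD and 16.7 in DMD.

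Vegfc (ENSRNOG00000011416), the ligand of Flt4 that drives lymphatic growth, was highest in endothelial-like nuclei, with lower levels in endocardial-, fibroblast- and lymphocyte-like nuclei. In endothelial-like nuclei it read 701 CPM in WT against 585 in BMD and 471 in DMD. The order was WT above BMD above DMD, and the log2 ratios to WT were -0.26 (95% interval -0.39 to -0.13) in BMD and -0.57 (95% interval -0.71 to -0.44) in DMD, the latter just short of 1.5-fold. DMD was also below BMD, by -0.31 (95% interval -0.44 to -0.19). Fibroblast-like nuclei showed the same order at a lower level, with 140.5 CPM in WT against 107 in BMD and 85.9 in DMD. There the log2 ratio of DMD to WT, -0.68 (95% interval -0.91 to -0.51), passed 1.5-fold, and that of BMD was -0.37 (95% interval -0.58 to -0.19). Endocardial-like nuclei were second in every library, at 149.7 CPM in WT against 145 in BMD and 176 in DMD from 22, 32 and 54 UMIs. They did not follow that order, their log2 ratios to WT were -0.05 (95% interval -0.88 to 0.80) and 0.23 (95% interval -0.51 to 1.02), and in DMD their counting interval lay above that of fibroblast-like nuclei. Lymphocyte-like nuclei read 80.7 CPM in WT against 83.9 in BMD and 129 in DMD, from 24, 17 and 33 UMIs. In percent of the endothelial-like level this was 11.5 in WT against 14.3 in BMD and 27.4 in DMD. The summed endothelial markers of lymphocyte-like nuclei, given below with Flt1, were also highest in DMD, and their part in these Vegfc values was not tested. Cardiomyocyte-like nuclei had almost none, at 1.94 to 2.65 CPM, where 1.90 to 2.82 CPM was estimated from free RNA. Lymphatic-like nuclei, where its receptor Flt4 was highest, held 7 to 11 Vegfc UMIs per library.

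The endothelial-like class was made of a pair of clusters, and Vegfc differed between them. A cluster led by Unc5c and Aplnr carried capillary and venous markers, with some arterial ones, and had 1285 WT, 1148 BMD and 1629 DMD nuclei. A cluster led by Dkk2 and Sox17 carried arterial markers and had 259 WT, 364 BMD and 294 DMD nuclei. Vegfc was higher in the latter, at 989 CPM in WT against 921 in BMD and 564 in DMD. The former read 647 CPM in WT against 488 in BMD and 456 in DMD. The log2 ratio of DMD to WT was -0.80 (-1.12 to -0.51) in the arterial-marker cluster and -0.50 (-0.65 to -0.36) in the other, so the lower Vegfc of DMD was seen in both. That of BMD was -0.10 (-0.35 to 0.15) and -0.40 (-0.56 to -0.25), so in BMD the interval included 0 in the arterial-marker cluster. In fibroblast-like nuclei, which split into a pair of clusters at a finer resolution, Vegfc was higher in the WT nuclei of the cluster led by Abca8a and Bmper (162 CPM in WT against 122 in BMD and 93.6 in DMD) than in that led by Ltbp2 and Tnc (87.1 CPM in WT against 98.2 in BMD and 79.0 in DMD). The latter, which carries matrix genes of activated fibroblasts, had 898 WT, 976 BMD and 1110 DMD nuclei, and within it the log2 ratio of DMD to WT was only -0.13 (-0.50 to 0.22), against -0.76 (-1.06 to -0.54) within the former.

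**Figure D2:**
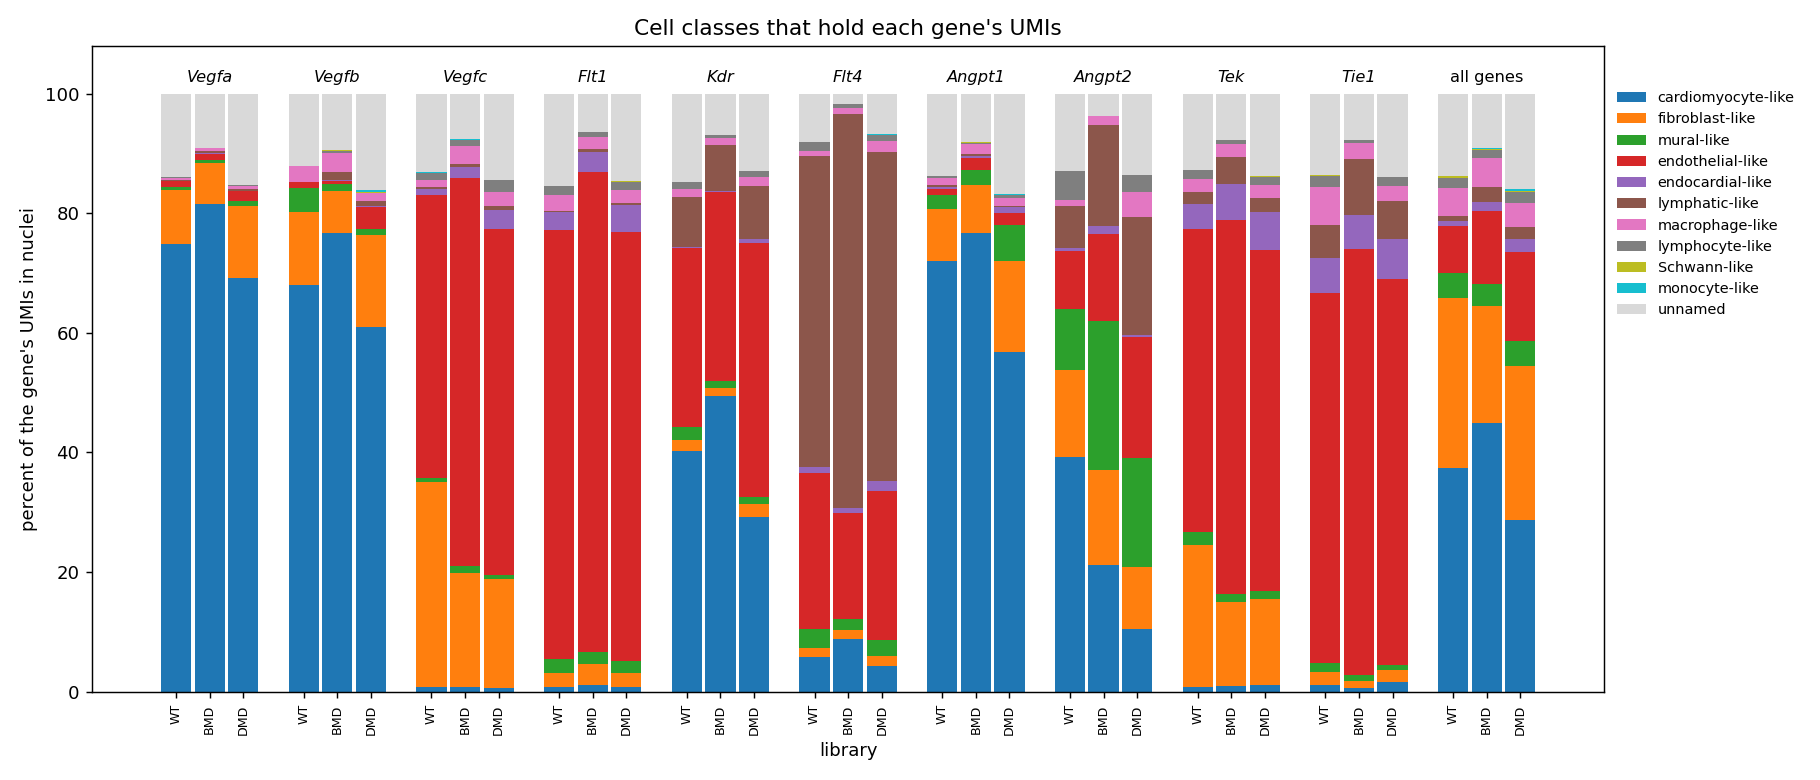
Share of the UMIs of each gene (percent of its UMIs in all nuclei, vertical axis) held by each cell class (colours), for the WT, BMD and DMD libraries, with the UMIs of all genes in the last group of bars. The ligands Vegfa, Vegfb and Angpt1 were mostly in cardiomyocyte-like nuclei, Flt1, Tek and Tie1 were mostly in endothelial-like nuclei, Vegfc was mainly in endothelial-like nuclei (47.2% of its UMIs in WT) and fibroblast-like nuclei (34.2%), and Kdr was mainly in endothelial- and cardiomyocyte-like nuclei. The share of Kdr in cardiomyocyte-like nuclei was close to the share of all genes there.

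The 3 VEGF receptors had 3 different class patterns. The bases just upstream of the start of Flt1, Tie1 and Kdr are shown because Flt1 and Tie1 were near the free RNA estimate in cardiomyocyte-like nuclei while Kdr was well above it in those nuclei. RefSeq entries were found for 7 of the 10 genes, without Angpt1, Angpt2 and Tek. Each run is the last 100 bases before the RefSeq start on build GRCr8, in the direction of transcription, with GGAA or its reverse complement TTCC, the core bound by ETS factors, in capitals.
Flt1 (chr12:12333330-12333429, plus strand): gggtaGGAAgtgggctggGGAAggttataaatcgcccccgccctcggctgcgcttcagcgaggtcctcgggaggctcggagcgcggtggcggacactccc
Tie1 (chr5:137304982-137305081, minus strand): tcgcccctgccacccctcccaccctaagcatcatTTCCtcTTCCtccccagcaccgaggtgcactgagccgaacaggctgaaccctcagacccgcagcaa
Kdr (chr14:32571963-32572062, plus strand): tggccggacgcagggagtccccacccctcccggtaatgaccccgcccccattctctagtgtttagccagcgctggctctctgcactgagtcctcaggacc
Flt1 and Tie1 each held 2 matches and Kdr held 0 in this window. Of the other genes, Vegfc, highest in endothelial-like nuclei, held 1, and Vegfb, highest in cardiomyocyte-like nuclei, held 0. Flt4, highest in lymphatic-like nuclei, held 0. Vegfa, highest in cardiomyocyte-like nuclei, held 2 at the first of its 2 starts and 0 at the second. The matches thus did not follow the class of expression throughout. Such a match stood in 67.5% of the 33469 RefSeq promoters in windows of the same length, so its presence is common. The letters TATAAA, searched on either strand, were found in Flt1 alone of the 3 and in 5.78% of promoters. The counts were made on build rn6, and these windows bear on no measured site.

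Flt1 (ENSRNOG00000000940), which binds Vegfa and Vegfb and also works as a decoy, was mainly in nuclei of the vessel and chamber lining. Endothelial-like nuclei read 2053 CPM in WT against 2283 in BMD and 2261 in DMD. Both mutant libraries were slightly above WT, with log2 ratios of 0.15 (95% interval 0.08 to 0.22) and 0.14 (95% interval 0.07 to 0.21). Endocardial-like nuclei, the lining of the chambers, were next with 782 CPM in WT against 759 in BMD and 926 in DMD, and lymphatic-like nuclei read only 70.3 to 88.7 CPM. Cardiomyocyte-like nuclei, at 4.98 CPM in WT against 8.79 in BMD and 13.1 in DMD, were near the 3.52 to 10.5 CPM estimated from free RNA. After thinning, the share of endothelial-like nuclei with a Flt1 UMI was 59.9% in WT against 60.4% in BMD and 63.3% in DMD. The cardiomyocyte-like share was 0.292 to 1.10%. In each of the pair of endothelial-like clusters Flt1 was abundant, and it was higher in that led by Unc5c and Aplnr by a log2 ratio of 0.34 in WT against 0.32 in BMD and 0.38 in DMD.

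Outside the vessel lining, Flt1 stood out in fibroblast-like nuclei of the mutants. It was counted at 85, 178 and 147 UMIs in the WT, BMD and DMD libraries, or 17.4 CPM in WT against 60.5 in BMD and 41.6 in DMD. The log2 ratios to WT were 1.55 (95% interval 1.42 to 2.19) in BMD and 1.06 (95% interval 0.86 to 1.66) in DMD, and BMD was the highest. The Flt1 UMIs lay in 74 WT, 103 BMD and 122 DMD fibroblast-like nuclei. Those of BMD were thus the most clumped, which the intervals do not cover. Free RNA was estimated at 7.19 to 20.7 CPM. With every nucleus that held a UMI of any of the 10 endothelial markers left out, the levels were 17.0 CPM in WT against 59.3 in BMD and 38.1 in DMD, so the order was the same. The summed endothelial markers of the class were 237 CPM in WT against 195 in BMD and 325 in DMD, with 0 of 10 markers at 0. In the cluster led by Ltbp2 and Tnc Flt1 read 19.7 CPM in WT against 82.9 in BMD and 52.8 in DMD, and in that led by Abca8a and Bmper 15.3 CPM in WT against 23.5 in BMD and 29.6 in DMD. The share of fibroblast-like nuclei with a Flt1 UMI was small, at 0.874% in WT against 2.18% in BMD and 1.90% in DMD after thinning. The intervals of these shares overlapped between BMD and DMD.

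Flt1 was also higher in DMD than in WT in mural-like nuclei (134 CPM in WT against 188 in BMD and 224 in DMD), macrophage-like nuclei (132 CPM in WT against 134 in BMD and 260.1 in DMD) and lymphocyte-like nuclei (178 CPM in WT against 217 in BMD and 348 in DMD). In these 3 classes the summed endothelial markers were also highest in DMD, with 0 of 10 markers at 0 in macrophage-like nuclei. They reached 539 CPM in WT against 743 in BMD and 1374 in DMD for macrophage-like nuclei. Lymphocyte-like nuclei had 1215 CPM in WT against 972 in BMD and 2027 in DMD, and mural-like nuclei 1058 CPM in WT against 899 in BMD and 1199 in DMD. The endothelial-like class itself had 11009.6 CPM in WT against 10332 in BMD and 10296 in DMD. In percent of the endothelial-like level, Flt1 of macrophage-like nuclei was 5.88 to 11.5 over the 3 libraries and the endothelial markers were 4.90 to 13.3. At resolution 1.0 the log2 ratio of DMD to WT in macrophage-like nuclei was 0.09. After thinning, the share of macrophage-like nuclei with a Flt1 UMI was 3.99% in WT against 2.84% in BMD and 5.52% in DMD, with overlapping intervals. Tek, another endothelial gene, was likewise higher in macrophage-like nuclei of DMD, from 93.6 to 174 CPM with a log2 ratio of 0.86 (95% interval 0.44 to 1.35). The part of endothelial RNA in the Flt1 and Tek values of macrophage- and lymphocyte-like nuclei was not tested. In mural-like nuclei, leaving out nuclei with an endothelial marker UMI left 7.87 CPM in WT against 45.2 in BMD and 94.8 in DMD, from 3, 13 and 24 UMIs. The whole mural-like class held 94, 103 and 133 Flt1 UMIs, so most of them were in the nuclei left out.

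Kdr (ENSRNOG00000046829), the main signalling receptor for Vegfa, was spread over 3 classes. Lymphatic-like nuclei had the highest level, 742 CPM in WT against 384 in BMD and 552 in DMD. Endothelial-like nuclei read 307 CPM in WT against 318 in BMD and 364 in DMD. Cardiomyocyte-like nuclei read 87.1 CPM in WT against 136 in BMD and 129 in DMD, and the counting intervals of these 3 classes did not overlap within WT or DMD. Within BMD those of the lymphatic- and endothelial-like nuclei overlapped. Endocardial-like nuclei were low, at 13.6 to 39.1 CPM from 2 to 12 UMIs, although Flt1 and Tek were abundant there.

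The share of all Kdr UMIs in cardiomyocyte-like nuclei was 40.3% in WT against 49.5% in BMD and 29.2% in DMD. The share in endothelial-like nuclei was 29.9% in WT against 31.5% in BMD and 42.5% in DMD, smaller in WT and BMD and larger in DMD. Stray endothelial RNA was measured beside it. The 10 endothelial markers together reached 0.351 to 0.962% of their endothelial-like level in cardiomyocyte-like nuclei, and Flt1 reached 0.243 to 0.581%, while Kdr reached 28.4 to 42.8%. Without the nuclei that held an endothelial marker UMI, Kdr in cardiomyocyte-like nuclei was as high, at 87.2 CPM in WT against 135 in BMD and 125 in DMD. The share of cardiomyocyte-like nuclei with a Kdr UMI after thinning was 4.38% in WT against 5.71% in BMD and 5.68% in DMD. That of fibroblast-like nuclei was 0.395 to 0.786%.

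Between genotypes Kdr went opposite ways in cardiomyocyte-like and lymphatic-like nuclei. In cardiomyocyte-like nuclei it was above WT in both mutants, with log2 ratios of 0.62 (95% interval 0.49 to 0.80) in BMD, past 1.5-fold, and 0.54 (95% interval 0.39 to 0.74) in DMD, short of it. In lymphatic-like nuclei it was below WT, with -0.94 (95% interval -1.31 to -0.58) in BMD, past 1.5-fold, and -0.42 (95% interval -0.78 to -0.07) in DMD. The share of lymphatic-like nuclei with a Kdr UMI after thinning was 29.4% in WT against 19.7% in BMD and 27.3% in DMD, with overlapping counting intervals. Without thinning it was 46.9% in WT against 38.2% in BMD and 48.8% in DMD, so DMD was not below WT there. In level, endothelial-like nuclei differed less, with log2 ratios of 0.05 (95% interval -0.13 to 0.24) and 0.24 (95% interval 0.07 to 0.42). Fibroblast markers in lymphatic-like nuclei summed to 2161 CPM in WT against 889.8 in BMD and 2010.3 in DMD and endothelial markers to 3683 CPM in WT against 3772 in BMD and 3699.9 in DMD, and their part in the Kdr values was not tested. Within the endothelial-like class, Kdr was higher in the cluster led by Unc5c and Aplnr (344 CPM in WT against 385 in BMD and 399.6 in DMD) than in that led by Dkk2 and Sox17 (112 CPM in WT against 85.3 in BMD and 140.2 in DMD).

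Flt4 (ENSRNOG00000002511), the receptor of Vegfc and a gene of lymphatic endothelium, was largely in lymphatic-like nuclei, at 1145 CPM in WT against 1019 in BMD and 1052 in DMD. The 3 genotypes overlapped in their counting intervals, and the log2 ratios to WT were -0.17 (95% interval -0.43 to 0.10) and -0.12 (95% interval -0.40 to 0.15). Endothelial-like nuclei had 66.6 CPM in WT against 55.8 in BMD and 65.7 in DMD, with no difference beyond counting error either. The share of Flt4 UMIs in the lymphatic-like class was 52.03% in WT against 65.9% in BMD and 55.0% in DMD, although its share of nuclei was only 1.44% in WT against 3.80% in BMD and 2.60% in DMD. Flt4 was seen after thinning in 35.6 to 40.6% of lymphatic-like nuclei over the 3 libraries and in 0.0282 to 0.0863% of fibroblast-like nuclei.

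Angpt1 (ENSRNOG00000005854), the ligand that activates Tek, had in DMD the largest difference below WT of the 10 genes in cardiomyocyte-like nuclei. Its levels there were 957 CPM in WT against 739 in BMD and 514 in DMD. Each step down was larger than counting error, with log2 ratios of -0.37 (95% interval -0.43 to -0.32) for BMD to WT, -0.89 (95% interval -0.97 to -0.82) for DMD to WT and -0.52 (95% interval -0.60 to -0.45) for DMD to BMD. DMD to WT passed 1.5-fold. The share of cardiomyocyte-like nuclei with an Angpt1 UMI after thinning was 31.3% in WT against 22.0% in BMD and 17.4% in DMD, and 63.3% in WT against 49.2% in BMD and 44.96% in DMD without it. In lymphocyte-like nuclei the thinned share was 2.63 to 4.04%.

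This order was not the same within each cluster of cardiomyocyte-like nuclei. At the finer resolution of 1.0 most of these nuclei fell into 2 clusters. A cluster led by Dhrs7c and Ky, with the adult myosin gene Myh6 among its top genes, held 1718 WT, 329 BMD and 309 DMD nuclei. A cluster led by Nppa and Xirp2, with the natriuretic peptide genes that rise in strained myocardium, held 311 WT, 1201 BMD and 760 DMD nuclei. Angpt1 was far higher in the former, by a log2 ratio of 2.21 in WT against 1.94 in BMD and 1.03 in DMD. In the cluster led by Dhrs7c and Ky, Angpt1 read 1119.6 CPM in WT against 1939 in BMD and 868 in DMD. There BMD was above WT, with a log2 ratio of 0.79 (0.72 to 0.86), and DMD was below it, with -0.37 (-0.48 to -0.26). In the cluster led by Nppa and Xirp2 it read 237 CPM in WT against 502 in BMD and 423 in DMD, and both mutants were above WT, with 1.07 (0.90 to 1.27) and 0.82 (0.64 to 1.03). In BMD the whole class was thus below WT while each cluster was above it, and fewer BMD nuclei were in the cluster with more Angpt1. In DMD the level was lower in the cluster led by Dhrs7c and Ky and higher in the other. Angpt1 was not used to build the clusters but is among the top 10 genes of the one led by Dhrs7c and Ky, so the difference between clusters is a description.

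**Figure D3:**
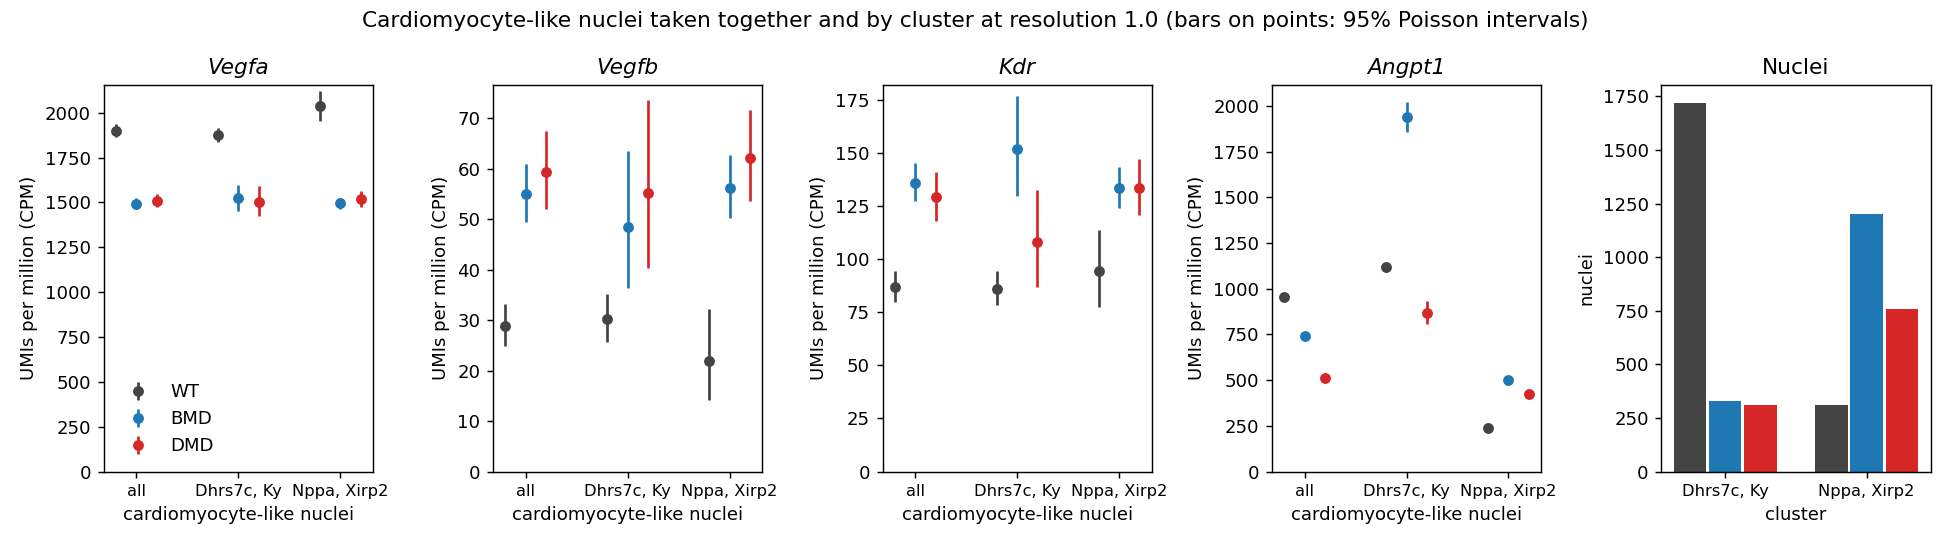
Levels of Vegfa, Vegfb, Kdr and Angpt1 (CPM, vertical axes from 0) in all cardiomyocyte-like nuclei and in each of their clusters at resolution 1.0, for WT, BMD and DMD (grey, blue and red) with 95% Poisson intervals, and the number of nuclei in each cluster (right panel). Vegfa points of both mutants lay below WT and those of Vegfb and Kdr above it in each cluster, while the order of Angpt1 changed between all nuclei and the clusters.

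Vegfa, Vegfb and Kdr behaved otherwise and lay on the same side of WT in both cardiomyocyte-like clusters. Vegfa read 1875 CPM in WT against 1524 in BMD and 1505 in DMD in the cluster led by Dhrs7c and Ky, and 2036 CPM in WT against 1495 in BMD and 1520.0 in DMD in that led by Nppa and Xirp2. Vegfb read 30.2 CPM in WT against 48.6 in BMD and 55.2 in DMD in the former cluster. In the latter it read 21.8 CPM in WT against 56.2 in BMD and 62.1 in DMD. Kdr read 86.0 CPM in WT against 152 in BMD and 108 in DMD in the former, where the log2 ratio of DMD to WT had an interval that included 0, at 0.31 (-0.01 to 0.66). In the latter it read 94.2 CPM in WT against 133 in BMD and 134 in DMD, and there the log2 ratio of BMD to WT, 0.48 (0.21 to 0.81), fell short of 1.5-fold.

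Mural-like nuclei, which hold the pericytes that supply Angpt1 to vessels, had the second highest Angpt1 level in each library, with 296 CPM in WT against 308 in BMD and 359 in DMD. The log2 ratio of DMD to WT, 0.27 (95% interval -0.005 to 0.56), was above 0 but not beyond counting error. Fibroblast-like nuclei had 151 CPM in WT against 174 in BMD and 154 in DMD, which gave log2 ratios of 0.20 (95% interval 0.05 to 0.38) and 0.03 (95% interval -0.13 to 0.20). The share of Angpt1 UMIs held by cardiomyocyte-like nuclei was 72.1% in WT against 76.8% in BMD and 56.8% in DMD, and the share held by mural- and fibroblast-like nuclei was highest in DMD, at 5.95% and 15.2%. Endothelial-like nuclei read 62.9 CPM in WT against 66.1 in BMD and 35.3 in DMD with 19.7 to 48.5 CPM estimated from free RNA. Their log2 ratio of DMD to WT, -0.75 (95% interval -1.31 to -0.36), had the opposite sign, at 0.16, once that estimate was taken off. In the same nuclei the estimate was above the measured Vegfa, so the amount of Angpt1 taken off may be too large. The Angpt1 level of free RNA was 619 CPM in WT against 319 in BMD and 176 in DMD.

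Angpt2 (ENSRNOG00000016696), the angiopoietin of vessels under remodelling, was the least abundant of the 10 genes in counts, with 686 UMIs over all nuclei. Mural-like nuclei held 19, 53 and 52 UMIs in WT, BMD and DMD, or 27.1 CPM in WT against 96.7 in BMD and 87.7 in DMD. Both mutant libraries were above WT and apart from it in their counting intervals, with log2 ratios of 1.67 (95% interval 1.06 to 2.68) and 1.53 (95% interval 0.91 to 2.54), although under the minimum of 100 UMIs set for a call. Lymphatic-like nuclei held 13, 36 and 57 UMIs, or 83.1 CPM in WT against 96.8 in BMD and 203 in DMD. DMD was the highest there, with a log2 ratio to WT of 1.24 (95% interval 0.40 to 2.28). After thinning, the share of lymphatic-like nuclei with an Angpt2 UMI was 4.90% in WT against 3.86% in BMD and 6.83% in DMD, with overlapping intervals. Endothelial-like nuclei held 18, 31 and 58 UMIs, or 13.3 CPM in WT against 16.9 in BMD and 28.4 in DMD, and here too DMD was above WT, with a log2 ratio of 0.87 (95% interval 0.31 to 1.95). Cardiomyocyte-like nuclei read 11.4 CPM in WT against 6.70 in BMD and 7.58 in DMD, so WT was the highest there, with log2 ratios of -0.48 (95% interval -1.33 to -0.21) and -0.38 (95% interval -1.25 to 0.05). Their share of Angpt2 UMIs was 39.2% in WT against 21.1% in BMD and 10.5% in DMD. That was near their share of the UMIs of all genes in WT, given above with Vegfa, and below it in both mutants. Free RNA was estimated to give at most 2.10 CPM of Angpt2 in any class.

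Tek (ENSRNOG00000008587), which encodes the angiopoietin receptor Tie2, was highest in endothelial-like nuclei, at 1313 CPM in WT against 1182 in BMD and 1182 in DMD. BMD and DMD were slightly below WT by the same amount, with log2 ratios of -0.15 (95% interval -0.24 to -0.06) and -0.15 (95% interval -0.24 to -0.06). Endocardial-like nuclei were close behind, at 1027 CPM in WT against 949 in BMD and 877 in DMD, and lymphatic-like nuclei had 441 CPM in WT against 419 in BMD and 364 in DMD, both without a difference between genotypes beyond counting error. Tek differed little between the pair of endothelial-like clusters, with a log2 ratio of the one led by Unc5c and Aplnr to the other of 0.11 in WT against -0.04 in BMD and 0.17 in DMD.

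Tek was also found in fibroblast-like nuclei at nearly the same level in each genotype, 171 CPM in WT against 163 in BMD and 172 in DMD. Their share of Tek UMIs was 23.8% in WT against 13.9% in BMD and 14.3% in DMD, and their share of all nuclei 35.6% in WT against 24.3% in BMD and 29.4% in DMD. In percent of the endothelial-like level, Tek was 12.99 to 14.5 in fibroblast-like nuclei, while the 10 endothelial markers were 1.89 to 3.16 and Flt1 was 0.848 to 2.65. Leaving out nuclei with an endothelial marker UMI gave 171 CPM in WT against 171 in BMD and 164 in DMD, close to the values with them. Within the class, Tek was higher in the cluster led by Ltbp2 and Tnc than in that led by Abca8a and Bmper, by a log2 ratio of 0.53 in WT against 0.41 in BMD and 0.49 in DMD. Cardiomyocyte-like nuclei read 4.05 to 12.4 CPM, near the 3.12 to 7.64 CPM estimated from free RNA.

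Tie1 (ENSRNOG00000020173), an orphan receptor that works together with Tek, was mainly in the 3 classes that line vessels and chambers. Endothelial-like nuclei read 331 CPM in WT against 283 in BMD and 323 in DMD, endocardial-like nuclei 286 CPM in WT against 185 in BMD and 222 in DMD and lymphatic-like nuclei 256 CPM in WT against 183 in BMD and 232 in DMD. The counting intervals of the 3 classes overlapped in WT and no pair with 100 UMIs reached 1.5-fold. Endocardial-like nuclei of BMD, under that minimum, had a log2 ratio to WT of -0.61 (95% interval -1.28 to 0.03). In endothelial-like nuclei BMD was lower than WT by a log2 ratio of -0.22 (95% interval -0.41 to -0.04) and DMD was at -0.04 (95% interval -0.21 to 0.14). Fibroblast-like nuclei had 3.06 to 5.67 CPM and cardiomyocyte-like nuclei 0.596 to 4.04 CPM, about the free RNA estimates of 2.06 to 7.22 and 1.01 to 3.67 CPM.

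**Figure D4:**
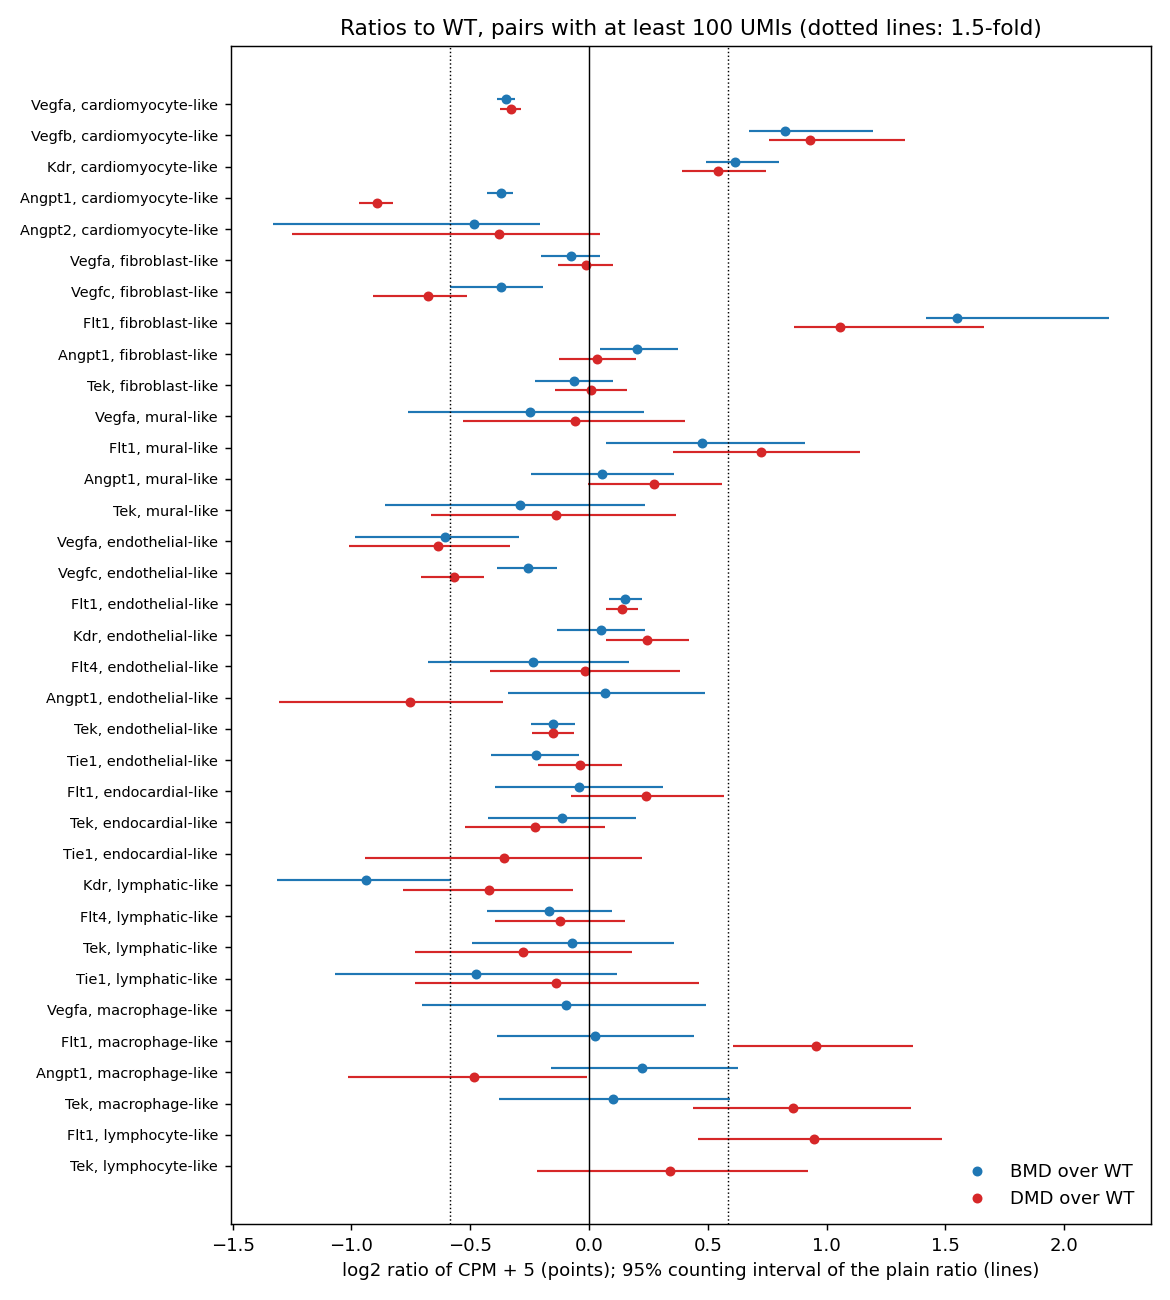
Log2 ratios of BMD to WT (blue) and DMD to WT (red) for each gene and cell class with at least 100 UMIs over the 2 libraries: points are ratios of CPM + 5, lines are 95% counting intervals of the plain ratio, and dotted lines mark 1.5-fold. Vegfb and Kdr in cardiomyocyte-like nuclei and Flt1 in fibroblast-like nuclei lay to the right in both mutants, and Vegfa in cardiomyocyte-like and endothelial-like nuclei and Vegfc in fibroblast-like and endothelial-like nuclei lay to the left.

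Of the 80 pairs of a gene and a class, 32 had 100 or more UMIs over BMD and WT, 34 over DMD and WT and 34 over DMD and BMD. In BMD over WT, 3 of 32 pairs (9.38%) were higher by at least 1.5-fold, where 4.43% of all 32414 gene and class pairs were, and 2 (6.25%) were lower, where 5.69% of all pairs were. In DMD over WT, 6 of 34 (17.6%) were higher against 4.14% of all pairs, and 4 (11.8%) were lower against 4.34%. In DMD over BMD, 3 (8.82%) were higher against 3.74%, and 2 (5.88%) were lower against 2.57%. The DMD counts above WT include Flt1 in mural-, macrophage- and lymphocyte-like nuclei and Tek in macrophage-like nuclei. Endothelial markers were highest in DMD in these classes as well, and their part in the counts was not tested. In mural-like nuclei without an endothelial marker UMI, Flt1 read 7.87 CPM in WT against 94.8 in DMD. That left 3 of 94 UMIs in WT and 24 of 133 in DMD, under the minimum of 100 UMIs. The DMD counts below WT include Vegfa and Angpt1 in endothelial-like nuclei. There the free RNA estimate was above the measured Vegfa, so it was too high, and it came to much of the measured Angpt1.

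By class, cardiomyocyte-like nuclei had 5 of the 10 genes over the minimum, with 2 higher and 0 lower in BMD, where 4.53% of all genes were higher and 5.32% lower. In DMD 1 was higher and 1 lower, against 5.35% and 6.8%. Their median log2 ratio was -0.35 in BMD and -0.33 in DMD, where the median of all genes was -0.05 and -0.04. Endothelial-like nuclei had 8 of the 10 genes over the minimum, with 0 higher and 1 lower in BMD and 0 higher and 2 lower in DMD. Over all genes 3.03% were higher and 3.93% lower in BMD, and 2.88% were higher and 1.74% lower in DMD. The endothelial medians were -0.19 and -0.10, against -0.01 in both comparisons for all genes. BMD and DMD share the WT library, so their ratios to it are not independent of each other.

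Further genes of the pathway were counted as a list of 26 found in the tables, in 4 groups. Over the whole list 6 of 74 gene and class pairs were higher and 5 lower in BMD, and 7 of 75 higher and 5 lower in DMD, to be read against the percentages of all pairs above. Among further ligands and co-receptors, 2 of 20 gene and class pairs were higher and 1 lower in BMD, and 4 of 21 were higher and 1 lower in DMD. Vegfd, another ligand of Flt4, was lower in fibroblast-like nuclei of both mutants, at 298 CPM in WT against 133 in BMD and 162 in DMD, with log2 ratios of -1.13 (95% interval -1.33 to -1.001) and -0.86 (95% interval -1.02 to -0.74). With Vegfc also lower there in DMD, the fibroblast-like nuclei of DMD were below WT in both ligands of Flt4. Nrp2, a co-receptor that binds Vegfc, was higher in the same nuclei, at 18.6 CPM in WT against 31.6 in BMD and 55.0 in DMD.

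Among the oxygen-sensing genes, 2 of 23 pairs were higher and 1 lower in BMD, and 1 of 25 higher and 1 lower in DMD. Epas1, which encodes the hypoxia-inducible factor HIF-2 alpha, was lower in cardiomyocyte-like nuclei of both, at 109 CPM in WT against 61.5 in BMD and 54.6 in DMD, with log2 ratios of -0.78 (95% interval -1.01 to -0.65) and -0.94 (95% interval -1.23 to -0.78). Among the genes of the signal relay, 0 of 24 were higher and 2 lower in BMD, and 0 of 22 higher and 3 lower in DMD. Dok2, an adaptor that Tek binds and that blood cells also use, was lower in lymphocyte-like nuclei (384 CPM in WT against 227 in BMD and 231 in DMD) and macrophage-like nuclei (132 CPM in WT against 81.6 in BMD and 78.6 in DMD) of both. Among genes known to respond to VEGF in endothelium, 2 of 7 pairs were higher and 1 lower in BMD, and 2 of 7 higher and 0 lower in DMD. Both that were higher in both mutants were in cardiomyocyte-like nuclei: Rcan1, an inhibitor of calcineurin, at 111 CPM in WT against 244 in BMD and 218 in DMD, and Adamts1, a secreted protease, at 19.0 CPM in WT against 35.9 in BMD and 60.4 in DMD. In endothelial-like nuclei 0 of the 3 measured response genes passed 1.5-fold in either mutant. Over all genes of that class 3.03% were higher and 3.93% lower in BMD, and 2.88% and 1.74% in DMD. With such shares, 0 of 3 says little about the response.

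The genes whose level over the 24 sums of class and library was most like that of each of the 10 were found by Pearson's r of log2 CPM + 5. Points of 1 class share cells of like kind and points of 1 library share its depth and free RNA, so r is a description. For Flt1 they were Cyyr1 (0.96), Anxa3 (0.96), Myrip (0.96), and for Tek Fgd5 (0.98), Slc9a3r2 (0.96), Hspa12b (0.96). For Tie1 they were She (0.99), Efnb2 (0.98), Rasip1 (0.98), and for Flt4 Apba2 (0.95), Cldn5 (0.93), Ppef2 (0.93). Cyyr1 is one of the endothelial markers that named the class. For Vegfc they were Mecom (0.91), Rgs12 (0.88), Abcg3l3 (0.87), of which Mecom is also such a marker. For Vegfa they were AABR07025295.1 (0.94), Fsd1l (0.92), Sema3b (0.92), for Vegfb Lrrfip2 (0.86), LOC100362432 (0.85), Stard7 (0.85), and for Angpt2 Mustn1 (0.81), Map4k5 (0.80), Btbd3 (0.78). For the cardiomyocyte ligand Angpt1 they were Ppp2r3a (0.88), Adcy5 (0.88), Tmem196 (0.87), and for Kdr, with its mixed pattern, Adamts9 (0.87), Tdrp (0.87), Ppp1r9a (0.87).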

How the data were processed

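Heart apex nuclei of the 3 rat genotypes were sequenced with a 10x Genomics 3′ kit, 1 library per genotype, as the labels and methods state. Another passage of the study names a 5′ kit, which would change the end that the counts cover. The authors deposited raw UMI count tables made with Cell Ranger on rn6. The WT table is an aggregate of the 3 libraries, of which the barcodes of the third were used as WT. BMD and DMD counts came from their own tables. The file headers name Cell Ranger 6.0.1 for the WT aggregate and 4 for the BMD and DMD tables, so the version named differs along every comparison with WT, and its part was not tested. In the aggregate BMD and DMD hold 76.09% and 92.86% of their UMIs. Nuclei were the barcodes with the most UMIs, as many per library as the study's methods give. They were clustered together (scanpy 1.11.5, 2000 variable genes, 30 components, Leiden resolution 0.5) without the 10 genes and the pathway list, and named from markers. UMIs were summed per class and library. Ratios were taken on CPM + 5 with exact conditional binomial intervals, and levels with exact Poisson and shares with Clopper-Pearson intervals, each at 95%. A call needed 100 UMIs over the 2 libraries and 1.5-fold. The interval procedure was tested on simulated independent Poisson counts, as the intervals assume. That test does not cover the clumping of UMIs within nuclei. Genes named were the 10, pathway genes past 1.5-fold in both mutants the same way in a class and the 3 most like genes. The 10 genes and all lists were chosen with earlier results of these data known. Doublets called by Scrublet (5.10 to 10.4% of nuclei per library) were kept in the main values. Alternatives were other nucleus cutoffs, doublet and mitochondrial filters, another resolution, free RNA subtraction, TMM scaling (edgeR 4.0.16), a mean over nuclei, aggregate counts and other minimums, folds and pseudocounts.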

Additional observations from a re-analysis of the deposited data

Results flagged for a closer look

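Barcodes with at most 50 UMIs, which are in no class, carried more of 3 endothelial receptor transcripts in DMD than in WT. They hold free RNA, and the free RNA estimates set beside the class levels were made from them. Flt1 read 157 CPM in WT against 197 in BMD and 295 in DMD, with a log2 ratio of DMD to WT of 0.88 (95% interval 0.63 to 1.18). Tek read 139.6 CPM in WT against 149.8 in BMD and 214 in DMD, with a log2 ratio of 0.60 (95% interval 0.31 to 0.92). Tie1 read 45.1 CPM in WT against 58.4 in BMD and 103 in DMD, with a log2 ratio of 1.11 (95% interval 0.70 to 1.68). The receptors Kdr and Flt4 did not differ beyond counting error in these barcodes. Their log2 ratios of DMD to WT were 0.13 (95% interval -0.28 to 0.53) and 0.52 (95% interval -0.28 to 1.54). The rise was not confined to receptors. Vegfb read 19.0 CPM in WT against 47.3 in BMD and 40.9 in DMD, from 30, 30 and 29 UMIs. Its log2 ratio of DMD to WT was 0.93 (95% interval 0.31 to 1.89). Vegfa and Angpt1 were lower in DMD, with log2 ratios of -0.48 and -1.78. The share of endothelial-like nuclei was 15.5% in WT against 22.2% in BMD and 24.4% in DMD. The part of that share in the free RNA values was not tested.

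Kdr lay above WT in BMD in cardiomyocyte-like nuclei, at a log2 ratio of 0.62 (95% interval 0.49 to 0.80), and below WT in lymphatic-like nuclei, at -0.94 (95% interval -1.31 to -0.58). With 1 library per genotype the difference between the classes was not tested.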

How the results depend on the processing

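No paired analysis was possible because each genotype had 1 library, and for the same reason no library could be left out. Counts of gene and class pairs past 1.5-fold changed by over 1.5 times under these settings. They are given with the pairs tested but without the share over all genes at each setting. Their size can therefore not be judged against that share. With a minimum of 50 UMIs, which tests more pairs, 7 of 47 were higher and 6 lower in BMD over WT. At that minimum 15 of 49 were higher in DMD over WT and 8 of 50 in DMD over BMD. With a minimum of 200 UMIs, 1 of 24 was higher and 0 lower in DMD over BMD. At 2.0-fold, 1 of 32 was higher and 0 lower in BMD over WT. In DMD over WT 1 of 34 was higher and 0 lower, and in DMD over BMD 0 of 34 were higher and 0 lower. With doublets removed, 2 of 28 were higher in DMD over WT, and 0 of 27 were higher and 1 lower in DMD over BMD. Of the 6 pairs higher in DMD over WT, 6 were still past 1.5-fold without doublets, so those lost had fallen under 100 UMIs. At resolution 1.0, 3 of 30 were higher in DMD over WT, and 1 of 29 was higher and 1 lower in DMD over BMD. With free RNA subtracted, 1 of 28 was lower in BMD over WT and 2 of 29 were lower in DMD over WT. With barcodes of at least 1000 UMIs 1 of 27 was lower in BMD over WT, and with TMM scaling 1 of 32. Where no reason is given, the cause was not tested.

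Of the 1343 alternative values of 100 ratios, 1257 lay within the counting interval of the main ratio. Among ratios called past 1.5-fold, 3 values were reversed. They were Angpt1 in cardiomyocyte-like nuclei in DMD over WT within the cluster led by Nppa and Xirp2 (0.82, a setting chosen after seeing the data), Angpt1 in endothelial-like nuclei in DMD over WT with free RNA subtracted (0.16) and Angpt1 in macrophage-like nuclei in DMD over BMD as a mean over nuclei (0.27). Angpt1 in cardiomyocyte-like nuclei in BMD over WT, short of 1.5-fold and so not among these, also changed sign within each cluster, as described above. Vegfb in cardiomyocyte-like nuclei was past 1.5-fold in both mutants under all 15 settings run. Kdr in cardiomyocyte-like nuclei of BMD fell short of 1.5-fold in the cluster led by Nppa and Xirp2 (0.48), Flt1 in fibroblast-like nuclei of BMD in the cluster led by Abca8a and Bmper (0.49), Vegfc in fibroblast-like nuclei of DMD in that led by Ltbp2 and Tnc (-0.13), and Flt1 in macrophage-like nuclei of DMD at resolution 1.0 (0.09). Barcodes of at least 1000 UMIs left no endocardial-like class to compare. Outside cardiomyocyte-like nuclei Vegfb and Angpt2 held few UMIs per class, and their counting intervals were wide.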

Other observations

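Of the 80 pairs of a gene and a class, 32 reached the minimum of 100 UMIs over BMD and WT and 34 over DMD and WT. Among pairs under it, 6 had log2 ratios to WT on the same side of 0 in both mutants, beyond counting error. They were chosen after their values were seen. The WT counts enter the ratio of each mutant, so the sides are linked. How often genes in general do this under the minimum was not measured, so whether 6 is many cannot be judged. Angpt2 in mural-like nuclei and Vegfb in fibroblast-like nuclei, both higher in the mutants, are described above, as is Flt1 in cardiomyocyte-like nuclei, which was near the level estimated from free RNA. Vegfc in macrophage-like nuclei was counted at 22, 49 and 38 UMIs in the WT, BMD and DMD libraries, or 27.8 CPM in WT against 67.8 in BMD and 71.1 in DMD. Its log2 ratios to WT were 1.15 (95% interval 0.53 to 2.08) and 1.21 (95% interval 0.56 to 2.18), so both mutants were above WT, while in endothelial-like and fibroblast-like nuclei both were below it. These UMIs lay in 14 WT, 27 BMD and 28 DMD macrophage-like nuclei, and the intervals do not cover such clumping. After thinning, 0.922% of WT, 1.95% of BMD and 2.99% of DMD macrophage-like nuclei had a Vegfc UMI, with overlapping intervals. Endothelial markers in macrophage-like nuclei summed to 539 CPM in WT against 743 in BMD and 1374 in DMD, and their part in these values was not tested.

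The other 2 pairs were ligands that are mostly in cardiomyocyte-like nuclei, found in lymphatic-like nuclei. Angpt1 was counted there at 25, 19 and 6 UMIs, or 159.9 CPM in WT against 51.1 in BMD and 21.4 in DMD, where 14.1 to 40.1 CPM was estimated from free RNA. Its log2 ratios to WT were -1.56 (95% interval -2.59 to -0.73) and -2.64 (95% interval -4.48 to -1.58). These UMIs lay in 10 WT, 18 BMD and 6 DMD nuclei, so those of WT were clumped, which the intervals do not cover. After thinning, the share of lymphatic-like nuclei with an Angpt1 UMI was 2.10% in WT against 3.09% in BMD and 1.95% in DMD, so it did not show the difference. Vegfa was counted there at 35, 51 and 29 UMIs, and its log2 ratios were -0.69 (95% interval -1.36 to -0.04) and -1.08 (95% interval -1.88 to -0.36). Cardiomyocyte markers in lymphatic-like nuclei summed to 998 CPM in WT against 1296 in BMD and 1069 in DMD, and their part in these values was not tested.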
